A study of Mus musculus with 4 samples.

Results

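The 10 genes described here encode proteins of the specific (secondary) and gelatinase (tertiary) granules of neutrophils, or proteins that appear with them as these cells mature: Camp, Ltf, Lcn2, Ngp, Mmp8, Mmp9, Hp, Cd177, Fcnb and Padi4. They were chosen by gene symbol, and every probe set annotated with 1 of these symbols alone was taken, which gave 11 probe sets, 2 of them for Mmp9. They are 10 of the 18193 genes named by a single symbol on the array, and all 10 were above the low-signal limit described below in all 4 arrays. Total RNA was measured on Affymetrix arrays, 1 array per sample, in 2 G-MDSC samples (granulocytic myeloid-derived suppressor cells) and 2 neutrophil samples, all from female C57BL/6 mice. The G-MDSC, described by the submitters as CD11b+Ly6G+Ly6Clow, were selected for Ly6G on microbeads from the spleens of mice carrying EL4 lymphoma, 3.5 weeks after the tumour cells were injected under the skin. The neutrophils were collected by peritoneal lavage 3 h after the second of 2 casein injections (1.5 ml at 12%) spaced by 16 h. Cells carrying the macrophage antigen encoded by Adgre1 were removed from them before selection for Ly6G. Cell kind therefore cannot be told apart from tissue, tumour, casein or sorting in any comparison below. Whether the replicates of a group came from different mice is not given in the labels. The p-values therefore reflect only the spread between these samples, pooled in part across genes, and that spread may be technical.

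The deposited values are linear signal intensities, scaled by the authors to 1 common trimmed mean of 500. The dim probe sets of neutrophils replicate 2 were brighter than those of the other 3 arrays, with a median signal of 178 against 75.8 to 83.3. Of 7 tested markers that define neutrophils, 1 was called higher in G-MDSC and 0 lower, against 8.30% and 8.05% of all genes tested. At an unadjusted p under 0.05 by limma, 2 were higher and 0 lower, against 15% and 14.6%. The marker added at that level was Mmp9, which is also 1 of the 10 genes described here. S100a8, a calcium-binding protein that fills the neutrophil cytosol, had signals of 53178 and 61944 in G-MDSC, compared with 58668 and 85891 in neutrophils. Csf3r, the receptor for the granulocyte growth factor, had signals of 19174 and 27611 against 14881 and 15292. Its log2 difference was 0.61 ± 0.32 (limma adjusted p = 0.228). It was called higher in 2 of 18 alternative settings, both with quantile normalization (0.79). The called marker was Cxcr2, a receptor for neutrophil-attracting chemokines, with signals of 7230 and 10599 against 4625 and 2963. Its log2 difference was 1.24 ± 0.34 (limma adjusted p = 0.0291), and it was not called without G-MDSC replicate 2 (limma adjusted p = 0.305) or with median scaling (0.163). Ly6g, the sort marker, was not analysed here. Differences are G-MDSC minus neutrophils on the log2(signal + 16) scale, which understates changes of dim genes. They come from limma fitted to 13142 genes with Benjamini-Hochberg adjustment, and a gene was called at an adjusted p under 0.05. The value after ± is limma's standard error (SE), with the variance moderated across genes. The prior from all genes had 9.19 degrees of freedom, against 2 from the arrays of the gene itself.

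Neutrophils make their granules in sequence as they mature in the bone marrow. Azurophil granules with myeloperoxidase come first, in promyelocytes. Specific granules with lactoferrin and cathelicidin follow in myelocytes and metamyelocytes, and gelatinase granules come last, in band cells. Each protein goes to the granule that is forming while its gene is transcribed, and transcripts of most granule proteins decline as the cell becomes a mature segmented neutrophil. Some of these genes, such as that of lipocalin 2, can also be transcribed later, in inflamed cells.

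Among the antimicrobial proteins of specific granules, Camp, Ltf and Ngp were higher in G-MDSC, while Lcn2 did not pass the test. Camp encodes cathelicidin, whose cleaved peptide disrupts bacterial membranes. Its signals were 30456 and 30837 in G-MDSC, compared with 1277 and 600.4 in neutrophils, a log2 difference of 5.10 ± 0.37 (SE, n = 2 per group; limma adjusted p = 1.3e-05) or 34.3-fold. The G-MDSC arrays agreed closely and both stood far above both neutrophil arrays, and only 1 of the 13142 genes had a larger positive difference. Without neutrophils replicate 2, the lower of its group, the difference was 4.57. Ltf encodes lactoferrin, which binds iron and so withholds it from bacteria. Its signals were 30447 and 29703 in the G-MDSC arrays and 2483 and 822.1 in the neutrophil arrays, a log2 difference of 4.38 ± 0.44 (limma adjusted p = 1.1e-04) or 20.8-fold. The groups did not overlap, but the neutrophil arrays lay far apart, with replicate 2 the lower one. The difference was 3.59 without that array and 5.17 without neutrophils replicate 1.

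Ngp, neutrophilic granule protein, is a relative of the cathelicidins. Its signals were 37700 and 45624 in G-MDSC, compared with 12057 and 4184 in neutrophils, a log2 difference of 2.54 ± 0.44 (limma adjusted p = 0.00295) or 5.83-fold. Both neutrophil arrays were below both G-MDSC arrays, again with replicate 2 the lower one, and the difference was 1.78 without it and 3.30 without neutrophils replicate 1. Lcn2 encodes lipocalin 2, which binds bacterial siderophores and so blocks another route to iron. Its signals were 35426 and 43629 in G-MDSC, compared with 37612 and 48698 in neutrophils, and the arrays of the groups overlapped. The log2 difference was -0.12 ± 0.32 with a 95% interval from -0.83 to 0.58 (limma adjusted p = 0.825). Its sign turned with quantile normalization (0.25), with median scaling (0.52) and without some single arrays. At most 0.0822% of probe sets were brighter than that of Lcn2 in any array. Whether such signals were near saturation was not tested.

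The start regions of 4 of these genes are shown because Camp, Ltf and Ngp were higher together and Lcn2 was not, and Fcnb, described below, is shown as the third largest difference. Specific granule genes are known to depend on C/EBP-epsilon, a transcription factor of the C/EBP family that binds sites close to TTGCNNAA. The sequences are from RefSeq, build GRCm38.p6, and give the 250 bases before the annotated start on the strand of the gene, with capitals marking any match to TTGCNNAA on either strand. They lie at chr9:109849457-109849706 (minus strand) for Camp, chr9:111019042-111019291 (plus strand) for Ltf, chr9:110419558-110419807 (plus strand) for Ngp, chr2:28084879-28085128 (minus strand) for Fcnb and chr2:32387740-32387989 (minus strand) for Lcn2.
Camp: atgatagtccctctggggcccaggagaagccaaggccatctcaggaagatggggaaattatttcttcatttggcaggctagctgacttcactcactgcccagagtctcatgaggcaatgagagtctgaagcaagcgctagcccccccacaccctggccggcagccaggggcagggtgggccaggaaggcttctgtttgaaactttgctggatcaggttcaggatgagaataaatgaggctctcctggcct
Ltf: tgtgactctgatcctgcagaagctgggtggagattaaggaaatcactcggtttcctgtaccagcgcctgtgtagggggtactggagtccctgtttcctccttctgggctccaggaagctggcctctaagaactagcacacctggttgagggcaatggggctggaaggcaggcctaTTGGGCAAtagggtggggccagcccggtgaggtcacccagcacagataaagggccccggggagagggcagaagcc
Ngp: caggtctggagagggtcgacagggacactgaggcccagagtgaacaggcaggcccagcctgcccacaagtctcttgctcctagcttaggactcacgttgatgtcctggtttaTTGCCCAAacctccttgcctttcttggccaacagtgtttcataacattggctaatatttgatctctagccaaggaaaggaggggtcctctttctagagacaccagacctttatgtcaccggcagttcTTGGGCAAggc
Fcnb: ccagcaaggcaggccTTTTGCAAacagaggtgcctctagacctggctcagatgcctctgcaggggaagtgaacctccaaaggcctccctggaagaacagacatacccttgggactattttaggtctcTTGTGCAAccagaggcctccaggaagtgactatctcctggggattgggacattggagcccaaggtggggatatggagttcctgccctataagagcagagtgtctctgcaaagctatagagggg
Lcn2: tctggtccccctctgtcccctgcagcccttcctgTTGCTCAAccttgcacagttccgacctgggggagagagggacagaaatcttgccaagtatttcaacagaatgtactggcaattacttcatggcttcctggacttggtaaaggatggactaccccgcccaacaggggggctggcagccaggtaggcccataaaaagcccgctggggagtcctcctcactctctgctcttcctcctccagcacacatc
Ltf held 1 match, 75 to 68 bases before the start, Ngp held 2, at 138 to 131 and 11 to 4 bases, and Fcnb held 2, at 235 to 228 and 123 to 116 bases. Lcn2 held 1, at 216 to 209 bases, and Camp held none in this window. The table of start regions holds 8 of the 10 genes, and 5 of the 8 had a match, Mmp8 being the other. Of 32851 start regions of the same length, 9.56% had one. The PU.1 box GAGGAA, searched on both strands, was found in 4 of the 8 and in 23.3% of all start regions, and the TATA box TATAAA in 2 of the 8 and in 12.4%. The matches to different motifs did not overlap. A match describes the letters alone. Ngp, which was called higher, and Lcn2, which was not called, both had at least 1. Whether the matches bear on the differences was not tested.

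Mmp8 and Hp, also carried in specific granules, showed smaller differences that did not pass the test. Mmp8 encodes neutrophil collagenase, which cuts fibrillar collagen. Its signals were 25335 and 36588 in the G-MDSC arrays and 17293 and 18347 in the neutrophil arrays, so the groups did not overlap. The log2 difference was 0.77 ± 0.32 with a 95% interval from 0.07 to 1.47 (limma adjusted p = 0.131). It passed the threshold with quantile normalization (0.96), with the replicate block (0.77) and without neutrophils replicate 2 (0.82). Hp encodes haptoglobin, which captures free haemoglobin. Its signals were 23745 and 28477 in G-MDSC, compared with 21619 and 23527 in neutrophils, with the lowest G-MDSC array only 0.01 above the highest neutrophil array on the log2 scale. The log2 difference was 0.21 ± 0.31 with a 95% interval from -0.47 to 0.88 (limma adjusted p = 0.687), and it passed in none of the 18 alternative settings.

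**Figure D1:**
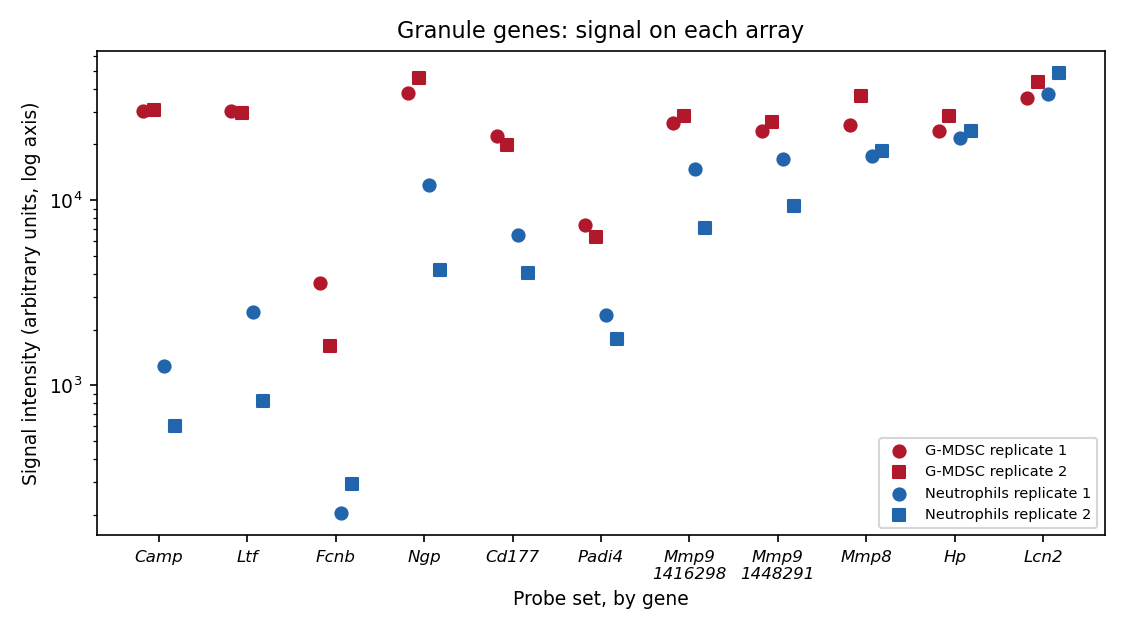
Signal intensity (arbitrary units, log axis) of the 11 probe sets on each of the 4 arrays, ordered by the difference between groups, with circles for replicate 1 and squares for replicate 2. Camp and Ltf were at 29703 to 30837 in G-MDSC and at or below 2483 in neutrophils, while the Lcn2 signals of the groups overlapped.

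Fcnb encodes ficolin B, a soluble lectin of immature myeloid cells that recognises microbial sugars and can start the lectin pathway of complement. Its signals were 3570 and 1633 in G-MDSC, compared with 204.6 and 293.9 in neutrophils. The G-MDSC arrays lay further apart than those of any other of the 10, by 1.12 on the log2 scale. The groups did not overlap, and the log2 difference was 3.22 ± 0.41 (SE, 2 arrays per group; limma adjusted p = 5.0e-04) or 9.30-fold. It was 2.66 without G-MDSC replicate 1 and 3.78 without G-MDSC replicate 2.

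Of the proteins tied to gelatinase granules and the cell surface, Cd177 was higher in G-MDSC, and Mmp9 passed with 1 of its probe sets. Mmp9 encodes gelatinase B, which gives these granules their name and cuts denatured collagen and basement membrane. Probe set 1448291_at, which represented the gene, had signals of 23688 and 26519 in the G-MDSC arrays and 16639 and 9322 in the neutrophil arrays, and 1416298_at had 26109 and 28550 against 14685 and 7053. Both showed separate groups and the same direction. The gene's log2 difference was 1.01 ± 0.35 with a 95% interval from 0.25 to 1.77 (limma adjusted p = 0.0714). In a fit of all 23411 single-symbol probe sets it was 1.01 ± 0.35 (limma adjusted p = 0.0998) for the first and 1.42 ± 0.38 (limma adjusted p = 0.0397) for the second, so only the second passed, where 5.76% of probe sets were called higher. The gene passed the threshold with quantile normalization (1.12), with the replicate block (1.01), and without neutrophils replicate 1 (1.43) or 2 (0.89).

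Cd177 encodes a surface protein of neutrophils that is also held in granule membranes and binds PECAM1 on endothelial cells. Its signals were 22127 and 19926 in G-MDSC, compared with 6478 and 4030 in neutrophils, and the groups did not overlap. The log2 difference was 2.04 ± 0.33 (SE, 2 arrays per group; limma adjusted p = 0.00194) or 4.10-fold, and it was 1.69 without neutrophils replicate 2. Padi4 encodes an arginine deiminase that converts histone arginine to citrulline and takes part in the release of neutrophil extracellular traps. It is an enzyme of the nucleus and cytosol and not granule cargo, and is described here with the genes it was grouped with. Its signals were 7320 and 6314 in G-MDSC, compared with 2386 and 1772 in neutrophils, again without overlap. The log2 difference was 1.72 ± 0.31 (limma adjusted p = 0.00354) or 3.29-fold, and it was 1.50 without neutrophils replicate 2. With median scaling the difference was 2.35 but no longer passed (limma adjusted p = 0.0768).

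**Figure D2:**
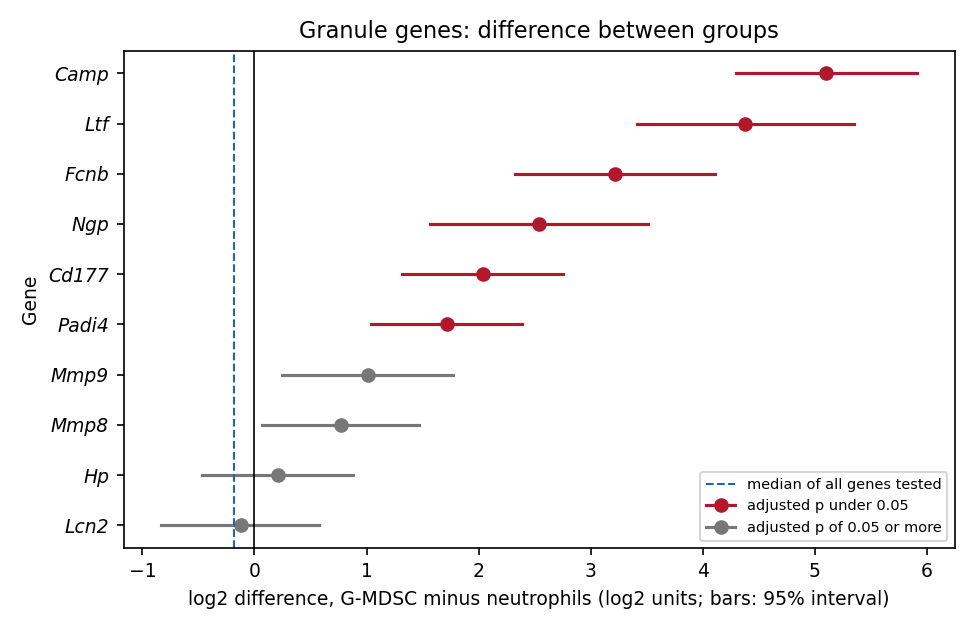
Difference between groups for the 10 genes (log2 units, G-MDSC minus neutrophils) with 95% intervals from limma, and the median of all genes tested as a dashed line at -0.18. The differences run from -0.12 for Lcn2 to 5.10 for Camp, and the 6 genes in red passed the threshold.

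In all, 6 of the 10 genes were called higher in G-MDSC, against 8.30% of all genes tested, and 0 were called lower by limma, against 8.05%. At an unadjusted p under 0.05 the numbers were 8 higher and 0 lower, against 15% and 14.6% of all genes. Both G-MDSC arrays were above both neutrophil arrays for 9 of the 10, against 27.3% of all genes. The median difference was 1.88, against -0.18 over all genes. These medians were 1.88 and 0.03 under quantile normalization, and both moved up under median scaling, to 2.51 and 0.41. In the neutrophils, replicate 2 was the lower array for 6 of the 10 genes (Camp, Ltf, Ngp, Mmp9, Cd177 and Padi4) and the higher one for 4. Without that array the median of the 10 was 1.60, against 0.03 over all genes. The calls rested on the moderation of variance across genes. Without it limma called 0 of the 10 and 0 of all 13142 genes. The SE was then 0.53 for Camp, 0.79 for Ltf, 0.77 for Ngp, 0.35 for Cd177, 0.61 for Fcnb and 0.24 for Padi4. These were larger than the moderated values except for Padi4. At an unadjusted p under 0.05 that fit had 5 of the 10 higher, against 8.98% of all genes, and adjusted p ran from 0.22 for Camp to 0.314 for Ngp among the 6. With a floor for low signals limma also called 0 of the 10 and 0 of all genes. At an unadjusted p under 0.05, 6 of the 10 were higher, against 13% of all genes. All signals of the 10 genes were above that floor of 133. The differences of the 6 were nearly unchanged, from 1.73 for Padi4 to 5.13 for Camp, and why the calls were lost was not tested. Without the intensity trend 3 of the 10 were called, against 1.13% of all genes, and Ngp (limma adjusted p = 0.0723), Cd177 (0.0553) and Padi4 (0.0622) lost their calls. Leaving out 1 array moved the share of all genes called as well. It was 3.24% higher and 4.44% lower without G-MDSC replicate 1, and 3.93% and 4.39% without G-MDSC replicate 2. It was 18.4% higher and 26.8% lower without neutrophils replicate 1, and 13.1% and 11% without neutrophils replicate 2. The list counts below that leave out an array are to be read against these shares.

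**Figure D3:**
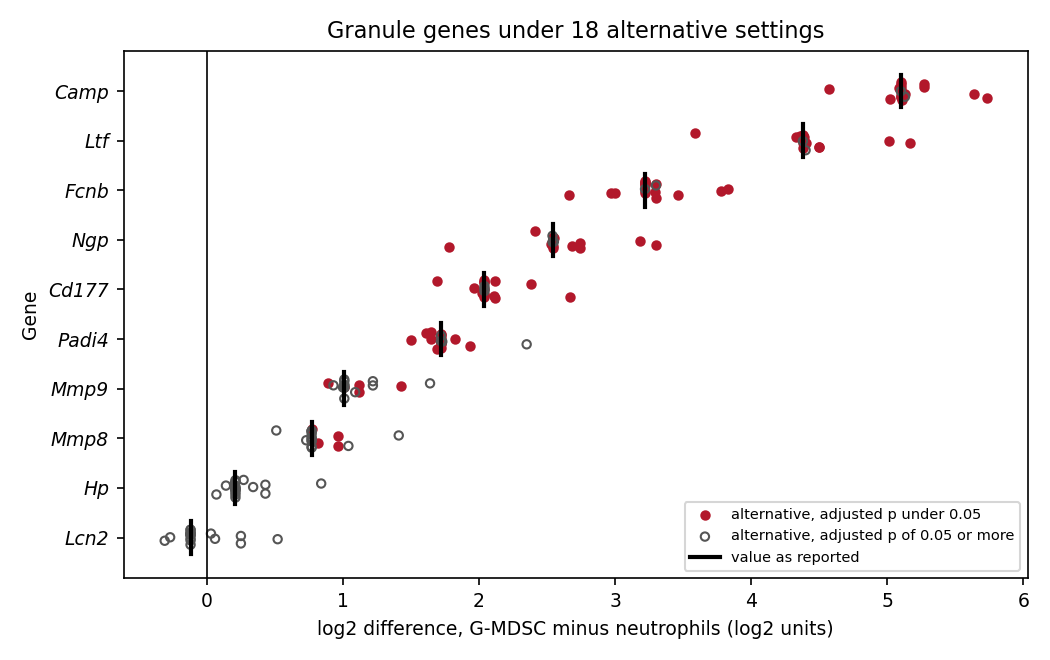
Difference of each of the 10 genes (log2 units, G-MDSC minus neutrophils) as reported (black bars) and under 18 alternative settings (points). The genes are ordered by the reported value, and Lcn2 alone has points on both sides of 0, from -0.31 to 0.52.

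Other genes of the same late granules did not move as a block. Of 22 further specific, gelatinase and secretory granule genes tested, 1 was called higher and 4 lower in G-MDSC, with a median difference of -0.14 against -0.18 over all genes. Retnlg, Chi3l1, Mmp25 and Fpr1 were not analysed here. The gene called higher was Gca, which encodes grancalcin, a calcium-binding protein of granule membranes. Its signals were 2281 and 1704 in the G-MDSC arrays and 620.4 and 484.1 in the neutrophil arrays, a log2 difference of 1.82 ± 0.33 (limma adjusted p = 0.00371). It was not called without G-MDSC replicate 1 (limma adjusted p = 0.0575). The genes called lower were Ptx3, Qpct, Plaur and Slc11a1. Ptx3, a secreted pattern recognition protein, had signals of 23.0 and 34.7 in G-MDSC, where both arrays fell under their 40th percentile, and of 516.5 and 484.3 in neutrophils. It was therefore at least 7.94-fold lower, or 3.47-fold when 1 floor, the highest such percentile, served all 4 arrays. Qpct, glutaminyl cyclase, had signals of 4.74 and 3.91 in G-MDSC, again under the 40th percentile of both arrays, and of 120.5 and 307.1 in neutrophils. It was at least 3.23-fold lower, or 1.41-fold with the common floor (limma adjusted p = 0.0372). Its call was lost with a pseudocount of 1 (limma adjusted p = 0.0943), without G-MDSC replicate 1 and without G-MDSC replicate 2. With each array's own percentile, the bound was 4.97-fold and 2.10-fold without neutrophils replicates 1 and 2. Plaur, the urokinase receptor, was lower by a log2 difference of -1.40 ± 0.32 (limma adjusted p = 0.0119), but not without G-MDSC replicate 1 (limma adjusted p = 0.187) or with median scaling (0.534). The number of genes called lower was 1 and 2 without G-MDSC replicates 1 and 2, and 7 without neutrophils replicate 1, where 26.8% of all genes were called lower. The number called higher was 0 without G-MDSC replicate 1, and it was 2 when neutrophils replicate 2 was left out.

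Some genes of this wider list that were not called are given for reference. Chil3, a chitinase-like lectin of mouse granulocytes, had a log2 difference of 0.85 ± 0.31 (limma adjusted p = 0.0906). Olfm4, a specific granule glycoprotein of some neutrophils, was at 0.15 ± 0.30, Slpi, an inhibitor of neutrophil elastase, at -0.19 ± 0.32, and Lyz2, lysozyme, at -0.31 ± 0.34. Itgam, the CD11b integrin chain stored in these granules, was at -0.08 ± 0.31. None of these 5 passed the threshold. They were chosen for this paragraph after their values were seen.

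Azurophil granule genes, made before the specific granules, ran alongside. Of 9 tested, 5 were called higher and 1 lower in G-MDSC, with a median of 0.97 against -0.18 over all genes. Mpo, myeloperoxidase, had signals of 8580 and 3980 in G-MDSC, compared with 149.6 and 156.5 in neutrophils, and Elane, neutrophil elastase, had 5017 and 1993 against 127.2 and 82.6. Both were brighter in G-MDSC replicate 1, as was Fcnb, whereas Camp and Ltf hardly differed between the G-MDSC arrays. The gene called lower was Ctsc, the cathepsin that activates the granule serine proteases, with a log2 difference of -1.84 ± 0.33 (limma adjusted p = 0.00334), lost with median scaling (limma adjusted p = 0.351). The number of genes called lower was 2 without either neutrophil array. Whether the 10 genes and the azurophil genes differ from each other was not tested.

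**Figure D4:**
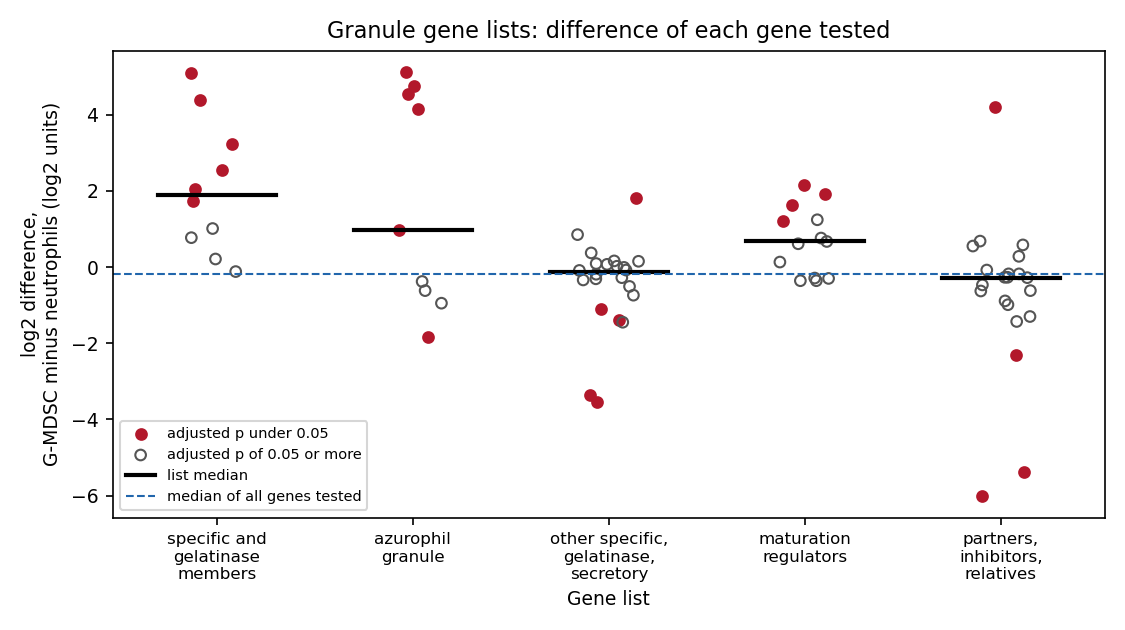
Difference of each gene tested (log2 units, G-MDSC minus neutrophils) in 5 lists, with filled points for an adjusted p under 0.05, black bars for list medians and a dashed line for the median of all genes. The medians were 1.88 for the 10 genes, 0.97 for azurophil granule genes, -0.14 for other late granule genes, 0.67 for maturation regulators and -0.28 for partners, inhibitors and relatives.

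Of 13 regulators of granulocyte maturation tested, 4 were called higher and 0 lower in G-MDSC, or 6 and 0 at an unadjusted p under 0.05 by limma, with a median of 0.67. Cebpe, the factor named above, was not analysed here. Cebpd, a C/EBP factor of late maturation, had signals of 9787 and 10146 in G-MDSC, compared with 3532 and 1945 in neutrophils, a log2 difference of 1.92 ± 0.34 (limma adjusted p = 0.00343). With the mean of its probe sets it was 0.94 and not called (limma adjusted p = 0.106). Klf5, a zinc finger factor of the granulocyte lineage, was at 2.16 ± 0.41 (limma adjusted p = 0.00519), or 0.89 and not called with the mean of its probe sets (limma adjusted p = 0.119). Myb, a factor of proliferating precursors, was at 1.63 ± 0.49 (limma adjusted p = 0.0448), and lost its call in 10 of the 18 alternatives. These included leaving out G-MDSC replicate 1 (0.81, limma adjusted p = 0.744), no filter (1.63, limma adjusted p = 0.09), quantile normalization (1.91, limma adjusted p = 0.0549) and the mean of its probe sets (limma adjusted p = 0.183). The other called gene was Ets1. Leaving out G-MDSC replicate 1 left 2 regulators called, and leaving out neutrophils replicate 1 gave 7, where 3.24% and 18.4% of all genes were called higher. Gfi1, a repressor needed for neutrophil differentiation, had signals of 279.9 and 134.7 in the G-MDSC arrays and 194.1 and 335.9 in the neutrophil arrays. Its arrays overlapped, its log2 difference was -0.36 ± 0.48, and the sign turned with median scaling (0.23). Cebpa (-0.29 ± 0.32), Cebpb (-0.36 ± 0.33) and Spi1, which encodes PU.1 (0.76 ± 0.30), did not pass.

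Genes that act on the products of the 10 genes, or are related to them, moved in both directions. Of 21 tested, 1 was called higher and 3 lower in G-MDSC, with a median of -0.28. The number called higher was 2 without neutrophils replicate 2, and the number called lower was 6 without neutrophils replicate 1, where 26.8% of all genes were called lower. Timp1, an inhibitor of metalloproteinases that binds the MMP9 proenzyme, had signals of 25.6 and 44.3 in G-MDSC, where both arrays fell under their 40th percentile, and of 1208 and 3502 in neutrophils. The G-MDSC level was at least 31.9-fold lower (limma adjusted p = 6.0e-05), or 14.0-fold with the common floor. With each array's own percentile, the bound was 54.1-fold without neutrophils replicate 1 and 18.8-fold without replicate 2. Reck, a membrane-bound inhibitor of several metalloproteinases including MMP9, went the other way, with signals of 2175 and 1660 in G-MDSC, compared with 110.0 and 68.7 in neutrophils, a log2 difference of 4.21 ± 0.37 (limma adjusted p = 4.5e-05). Mmp14, a membrane metalloproteinase, was lower in G-MDSC by a log2 difference of -6.02 ± 0.34 (limma adjusted p = 2.5e-06), with signals of 110.4 and 72.4 against 7867 and 5970. Lrp1, an endocytic receptor that clears metalloproteinases, was lower by -2.30 ± 0.35 (limma adjusted p = 0.00138), a call lost with median scaling (limma adjusted p = 0.179). Slc22a17, a lipocalin 2 receptor (-0.63 ± 0.52), Cd163, the haptoglobin-haemoglobin receptor (-0.89 ± 0.48), and the Padi4 relatives Padi2 (-0.62 ± 0.43) and Padi3 (0.28 ± 0.54) did not pass.

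In the mouse genome 4 of the 10 genes lie on chromosome 9. In the RefSeq order, 8 protein-coding genes lie between Camp and Ngp and 20 between Ngp and Ltf, while Mmp8 is elsewhere on the chromosome. The nearest tested gene on each side of the 10 genes gave 20 neighbours, of which 5 were called higher (25% against 8.30% of all genes) and 3 lower (15% against 8.05%). Beside Camp, Cdc25a was higher (1.37, limma adjusted p = 0.0241) and Nme6 was not called (-0.92). Beside Ngp, Klhl18 was higher (1.92, limma adjusted p = 0.015) and Ptpn23 was not called (-0.86). Beside Ltf, the chemokine receptor-like gene Ccrl2 was lower (-1.68, limma adjusted p = 0.0389). Beside Mmp8, the macrophage metalloelastase gene Mmp12 was at least 3.09-fold lower, or 1.35-fold with the common floor (limma adjusted p = 0.0417). Beside Fcnb, Col5a1 was at least 3.39-fold higher, or 2.29-fold with the common floor (limma adjusted p = 0.0114), and Olfm1 was lower (-2.40, limma adjusted p = 9.0e-04). Both neighbours of Cd177 were higher, Ethe1 by 2.11 (limma adjusted p = 0.00234) and Ceacam10, a secreted relative of the CEA adhesion molecules, by 2.58 (limma adjusted p = 3.3e-04). The neighbours of Padi4, Hp, Lcn2 and Mmp9 were not called. This comparison was added after the signals had been seen.

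The genes closest in pattern to the mean of the 10, by Euclidean distance between mean-centred log2 values over the 4 arrays, were Tk2, Trim11, Lmtk2, Zyg11b, Ulk1 and Osbpl2, at distances of 0.03 to 0.14. Tk2, a mitochondrial thymidine kinase, had signals of 1585 and 1629 in G-MDSC, compared with 444.8 and 310.9 in neutrophils. Zyg11b had a log2 difference of 2.17, but 1.02 with the mean of its probe sets (limma adjusted p = 0.0733) and 0.74 with their median (0.326). The likeness rests on 4 arrays and is a description.

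Markers of other cells also differed between the groups. In G-MDSC, 10 of 17 macrophage markers were called lower and 0 higher (1 higher at an unadjusted p under 0.05 by limma), with summed signals of 18500 and 18530 in the G-MDSC arrays and 45070 and 67020 in the neutrophil arrays. With median scaling 4 were lower and 1 higher, and 2 were higher without neutrophils replicate 2. Adgre1, whose product was used for depletion, had signals of 816.9 and 643.1 in G-MDSC, compared with 4847 and 7136 in neutrophils. Of 7 monocyte markers 5 were lower, with summed signals of 16880 and 17360 against 53300 and 72500. Among 10 markers of mast cells and basophils, 5 were lower and 1 was higher, with summed signals of 20030 and 22580 against 41150 and 30860. Cma1, a mast cell chymase, was at 17.7 and 9.44 in G-MDSC against 4591 and 1551. The marker called higher was Mcpt8, at 1195 and 359.1 against 7.96 and 132.2, with both neutrophil arrays under their 40th percentile. Both are small beside the G-MDSC sums, which came mainly from markers not named here. Of 7 dendritic cell markers 3 were lower, with summed signals of 1177 and 1318 against 5018 and 3158. Of 8 B and plasma cell markers 1, Jchain (log2 difference 4.49 ± 0.39), was higher and 1, Sdc1 (-2.30 ± 0.59), was lower. The summed signals were 17670 and 12990 against 8930 and 11380, of which Jchain alone made 8912 and 4232 against 310.0 and 215.4. T and NK cell, erythroid and eosinophil markers had 0 called by limma, with 1 T and NK cell and 1 eosinophil marker higher at an unadjusted p under 0.05. Their summed signals ran from 300.5 to 1492 in any array. No marker was listed at a signal of 0. The part of these cells in the granule gene differences was not tested, and in such bulk samples fewer cells of a type and less RNA per cell cannot be told apart.

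Of 16 cell cycle genes tested, 8 were called higher in G-MDSC and 0 lower by limma, or 12 and 0 at an unadjusted p under 0.05, with summed signals of 32350 and 16270 in G-MDSC, compared with 11620 and 11540 in neutrophils. The other 8 were not called, and the differences ran from -0.48 to 2.96. Without G-MDSC replicate 1, 1 was called higher. Ube2c, which drives exit from mitosis, had signals of 2878 and 1080 in the G-MDSC arrays and 221.9 and 308.3 in the neutrophil arrays. G-MDSC replicate 1, the brighter of the pair for the cell cycle list, was also the brighter for Fcnb, Mpo and Elane, while Camp was at 30456 in it and 30837 in replicate 2. The part of dividing precursors in the granule gene differences was not tested.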

How the data were processed

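Total RNA (100 ng per sample) of 4 samples was measured on Affymetrix arrays. The submitters' processing notes name GCOS 1.4 and MAS5 for the intensity values that the authors deposited. Their mean after trimming 2% of probe sets at each end is 500 in every array. With 2 arrays in each group, precision is limited by that number. Of 45101 probe sets, 64 are controls, 34945 have 1 gene symbol, 932 several and 9160 none in the platform annotation. By gene ID, 34741 were matched to RefSeq (GRCm38.p6, names and order only), and 0 symbols were updated. Detection calls were not used here.

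Signals were taken as log2(signal + 16) in limma 3.58.1 (R 4.3.3), and sequences and figures were handled in Python 3.11.15. Probe sets brighter than the array's 40th percentile on 2 or more arrays were kept, and the kept probe set of highest mean stood for its gene. A two-sided limma fit (lmFit, then eBayes with the intensity trend) used all 4 arrays. Exact permutation of so few arrays cannot reach a p below 0.33. Fold bounds set the bright group against the 40th percentile, or the signal if higher, of each dim array. Functions were tested on simulated data.

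The 10 genes, the lists and the rule for named genes were chosen with earlier results of these data known. The rule took, per list, up to 3 called genes per direction by size, or the 2 brightest, and some fixed genes, and the 6 genes nearest in pattern. Members of lists given only by counts were left unnamed. Alternatives were other pseudocounts, filters, normalizations, variance models and probe set choices, the replicate block and leaving out each array.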

Additional observations from a re-analysis of the deposited data

How the results depend on the processing

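The number of the 10 genes called higher was 6 as reported. It was 3 without the intensity trend and 0 without moderation across genes. It was also 0 with a floor for low signals, although that floor raised no signal of the 10 genes. In these 3 fits 1.13%, 0% and 0% of all genes were called higher. The number was 5 with median scaling and 8 with quantile normalization, where 7.03% and 6.93% of all genes were called higher. It ran from 6 to 8 over the fits that left out 1 array, where 3.24% to 18.4% of all genes were, and the number called lower was 0 in all 18 alternatives. The replicate block called 8 of 10, or 8 with quantile normalization as well. The replicate numbers name samples only. Over genes, the deviations of same-numbered samples correlated at r = 0.24, and the block raised the number of genes called from 1091 to 1699 higher and from 1058 to 1608 lower. Median scaling called 924 higher and 395 lower, or 70.1% higher against 50.8% as reported. Of 180 values for the 10 genes under the alternatives, 150 kept their direction and their side of the threshold and 5 changed sign, all of Lcn2. These were 0.25 with quantile normalization, alone or with the replicate block, 0.52 with median scaling, and 0.03 and 0.06 when G-MDSC replicate 1 or neutrophils replicate 2 was left out, in a range from -0.31 to 0.06 over the fits without 1 array. Among the other genes named, Gfi1 turned to 0.23 with median scaling and to 0.12 and 0.01 when G-MDSC replicate 2 or neutrophils replicate 2 was left out (range -0.85 to 0.12), and S100a8 and S100a9 to 0.33 and 0.19 with median scaling. The cause was not tested in any of these. With 2 arrays per group, fits that leave 1 out assume that the lone array varies like the other group.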
